A study of Mus musculus with 6 samples.

Results

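The endothelial and blood-nerve barrier genes are 37 genes of the vessel wall, taken by symbol from a list of endothelial surface, junction, transporter and capillary genes, out of 35850 genes in a table of optic nerve RNA. All mice carried GFAP-Cre and Nf1-Flox/R681X, a genotype that forms optic nerve glioma, and were 6 weeks old. The obesogenic group (3 libraries) had an AIN-76A formula with sucrose in which fat gave 58% of the energy, and the control group (3 libraries) had PicoLab 5053. The title of the series calls the exposure maternal, and the question of the series is how such exposure affects gene expression in the nerve. The GFAP promoter drives Cre in astroglial cells and their precursors, so vessel cells are not its intended target, while the R681X allele was carried by every cell of both groups. The labels do not tell whether libraries of one diet came from separate animals or litters, so p-values cover the spread among these libraries alone, and that spread may be technical.

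Endothelial cells of nerve and brain form a barrier: tight junctions seal the gaps between cells, transporters in the membrane admit nutrients and export foreign compounds, and vesicle traffic is kept low. Pan-endothelial surface proteins are shared by vessels of all tissues, whereas transporters such as P-glycoprotein and Slco1a4 are enriched in barrier vessels. Fenestrated vessels, which lack the barrier, express Plvap. In bulk tissue, fewer vessel cells and less RNA per vessel cell cannot be told apart.

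Expression is in TPM, a measure scaled by transcript length and by the library's total, summed over the listed transcripts of a gene. Cldn5, Cdh5, Pecam1 and Itm2a were above 0 in all 6 libraries, while Ocln, Icam2, Erg and Fli1 were at 0 in at least 1. Together the 37 genes took 0.236%, 0.22% and 0.276% of the listed TPM in obesogenic libraries 1, 2 and 3, against 0.42%, 0.404% and 0.304% in control libraries 1, 2 and 3. The obesogenic shares all lay below the control shares. Bsg, Itm2a and Slc3a2 weighed most in these sums (control means 1007, 518.9 and 335.4 TPM). Of these, Bsg and Slc3a2 are made by many cell types. Obesogenic library 2 held 20.6% of its listed TPM in immunoglobulin segment genes, against 0.00438% to 0.0439% in the other 5 libraries. Control library 3 had the lowest control value for 26 of the 37 genes.

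Of the 37 genes, 35 reached 1 TPM in at least 3 libraries and were tested. The transcription factors Erg and Fli1 stayed under that level on the transcripts listed. Adgrl4 passed the filter through the control libraries (3 at 1 TPM or more, against 1 obesogenic library), so a difference in it was partly built in. Among the 35 tested genes, 32 had a lower mean log2 value in obesogenic nerves and 3 (Ocln, Egfl7 and Plvap) a higher one, whereas 42.3% of all 14364 genes tested were lower. Libraries of the diets did not overlap in 16 of the 35, each time lower in obesogenic nerves, against 7.45% of all genes in that direction, and 0 were higher without overlap, against 8.88% of all genes. The median log2 change over the 35 genes was -0.63, against 0.08 over all genes. None of them passed an adjusted p of 0.05 in limma (smallest adjusted p = 0.162), where 1 gene of the whole table did (0.00696% of all genes, lower in obesogenic nerves). That gene was Gm9836, a gene model without an established symbol, named after its value was seen. It was at 0 in all obesogenic libraries and at 32.1, 17.8 and 22.1 TPM in control libraries. It passed the filter through the control libraries alone, so its difference was partly built in. At an unadjusted p under 0.05, 11 of the 35 genes were lower and 0 higher, against 5% of all genes lower.

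Calls depended on obesogenic library 2 and on how libraries were weighted. Without that library, limma called 914 genes (6.36% of all genes), 735 of them higher in obesogenic nerves. In the lower direction it called 1.25% of all genes. Of the 35, 4 were called, all lower: Itm2a (log2 change -1.12, adjusted p = 0.0304), Slco1a4 (-0.71, 0.0385), Abcg2 (-0.74, 0.043) and Cdh5 (-1.16, 0.0453). Leaving out any of the other 5 libraries called 0 of the 35. With weights estimated for each library (limma array weights), 11 of the 35 were called, all lower, against 3.89% of all genes in that direction. In the higher direction 10.5% of all genes were called. Rescaling the libraries without immunoglobulin genes kept 10 of the 16 genes free of overlap, against 5.78% of all genes. Clec14a, Nos3, Ptprb, Robo4, Slc3a2 and Tjp1 then overlapped, so their lack of overlap described below holds for TPM as deposited.

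**Figure D1:**
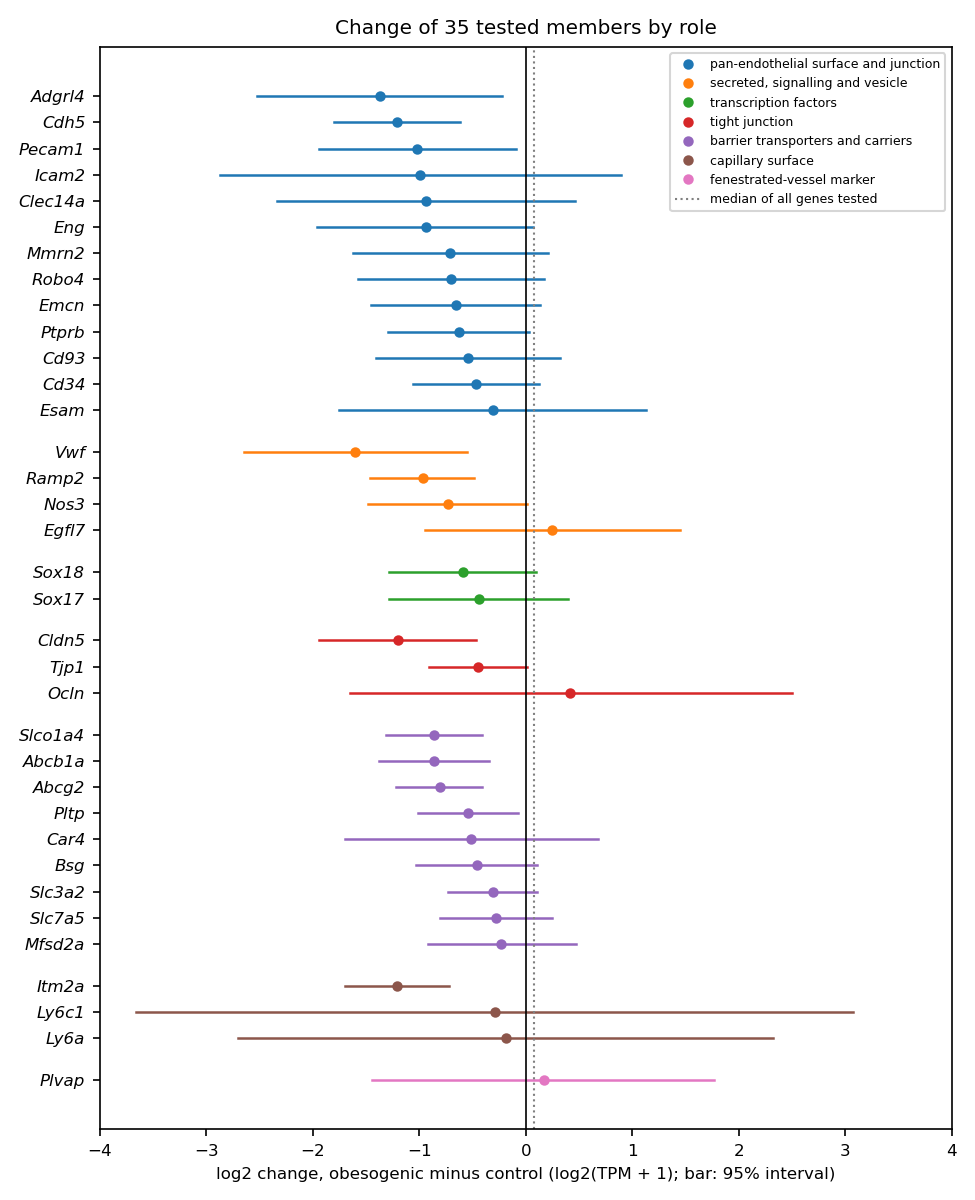
Log2 change of the 35 tested genes by role (obesogenic minus control, on log2(TPM + 1)), as points with 95% intervals from limma; the dotted line is the median of all genes tested (0.08). Of the points, 32 lie left of 0, and the intervals of Ly6c1 and Ly6a are the widest. Those of Cdh5, Ramp2, Itm2a, Slco1a4, Abcg2, Abcb1a, Cldn5, Vwf, Adgrl4, Pecam1 and Pltp lie wholly below 0. The intervals are not adjusted for the number of genes tested.

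Pan-endothelial surface and junction genes were lower in obesogenic nerves in all 13 tested, 5 of them without overlap between diets (Cdh5, Robo4, Ptprb, Emcn and Clec14a), with a median of -0.71. Cdh5, the VE-cadherin that holds endothelial cells together at adherens junctions, was at 6.22, 5.44 and 6.04 TPM in obesogenic libraries and 16.7, 16.1 and 12.4 TPM in control libraries. All obesogenic values were below all control values, with a log2 change of -1.21 (SE 0.25, 95% interval -1.80 to -0.62, adjusted p = 0.225). Pecam1, an adhesion molecule of endothelial contacts, was at 6.95, 5.92 and 10.1 TPM in obesogenic nerves and 21.9, 21.1 and 9 TPM in control nerves. Here control library 3 lay within the obesogenic range, and the change was -1.02 (SE 0.39, adjusted p = 0.427). Ptprb, the VE-PTP phosphatase that restrains Tek signalling, was nearly the same in the obesogenic libraries (8.98, 8.92 and 8.85 TPM) and spread over 18.4, 15.5 and 10.2 TPM in the control libraries. Its change was -0.63 (SE 0.28, adjusted p = 0.479), without overlap. Adgrl4, an orphan adhesion receptor of endothelium, was at 2.48, 0.786 and 0.929 TPM in obesogenic nerves and 6.89, 2.19 and 7.23 TPM in control nerves, with overlap between obesogenic library 1 and control library 2 (-1.37, SE 0.49, adjusted p = 0.408).

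The other 9 surface genes had changes between -0.99 (Icam2) and -0.31 (Esam). They are Robo4, a guidance receptor of stable vessels, Emcn and Cd34, sialomucins of the luminal face, Mmrn2, a matrix protein that binds Cd93 and Clec14a, those lectin-domain receptors themselves, Eng, a co-receptor for BMP ligands, and the adhesion molecules Esam and Icam2. Control library 1 was the highest control library for Eng, at 45.1 TPM, while obesogenic library 2 (23.3 TPM) exceeded control libraries 2 and 3 (22.9 and 21.7 TPM). Esam was at 4.09, 3.29 and 2.24 TPM in obesogenic nerves and 7.96, 6.89 and 0.905 TPM in control nerves, so control library 3 was the lowest of the 6. Icam2 was uneven within both diets, from 0 to 4.35 TPM in obesogenic and from 0.491 to 4.94 TPM in control libraries.

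**Figure D2:**
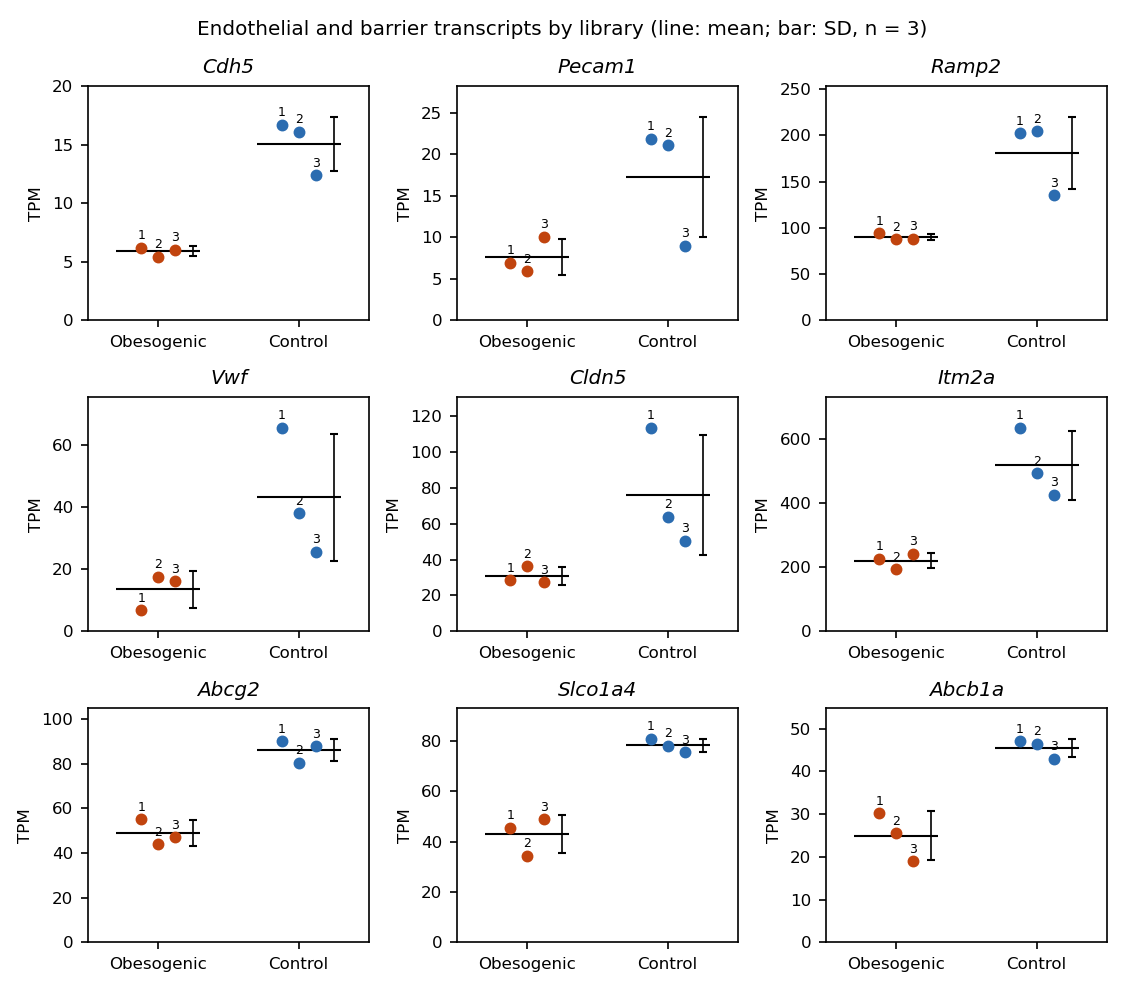
TPM in each library of Cdh5, Pecam1, Ramp2, Vwf, Cldn5, Itm2a, Abcg2, Slco1a4 and Abcb1a. Obesogenic libraries are left of control libraries, with points for libraries, lines for means and bars for SD (n = 3 each). Among the genes drawn, the diets overlap in Pecam1 alone, where a control point reaches the obesogenic range. The transcription factors and Plvap, whose tested genes all overlapped between diets, are not drawn.

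Of the secreted, signalling and vesicle genes, 3 of 4 tested were lower without overlap and the median was -0.85. Vwf, the clotting factor stored in endothelial granules, was at 6.84, 17.6 and 16.1 TPM in obesogenic nerves, against 65.6, 38.1 and 25.7 TPM in control nerves (-1.60, SE 0.45, adjusted p = 0.302). Ramp2, the partner that turns the calcitonin-like receptor into an adrenomedullin receptor on vessels, was at 94.4, 87.8 and 88.5 TPM in obesogenic nerves, against 202.6, 204.8 and 135.7 TPM in control nerves. No library overlapped, and the change was -0.97 (SE 0.21, adjusted p = 0.227). Nos3, which makes the vasodilator nitric oxide, gave 9.03, 8.64 and 8.08 TPM in obesogenic nerves, against 21.6, 15.5 and 9.82 TPM in control nerves (-0.73, SE 0.32, adjusted p = 0.464). Egfl7, a secreted endothelial matrix protein that hosts miR-126 in its transcript, went the other way on the log scale: 44, 46.2 and 54.7 TPM in obesogenic nerves, and 70.6, 56.8 and 16 TPM in control nerves. Its change of 0.25 (SE 0.51, adjusted p = 0.899) rested on control library 3, and without that library it was -0.39.

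Of the 4 endothelial transcription factors, Sox17 and Sox18 were tested and overlapped between diets. Sox18, a factor of vessel development, was at 18.1, 15.3 and 24.5 TPM in obesogenic nerves and 34.9, 34.1 and 20.4 TPM in control nerves (-0.59, SE 0.29, adjusted p = 0.514). Sox17, a factor of arterial identity, was at 18.1, 24 and 28.7 TPM in obesogenic nerves and 39.2, 44.3 and 18.4 TPM in control nerves (-0.44, SE 0.36, adjusted p = 0.711). In both, control libraries 1 and 2 were above all obesogenic libraries and control library 3 was not. The ETS factor Erg was listed at 0.318, 0.166 and 0 TPM in obesogenic nerves and 0.701, 0.565 and 0.772 TPM in control nerves, and Fli1, another ETS factor, at 0.936, 0 and 0 TPM in obesogenic nerves and at 0 in all control libraries. At these levels neither was compared. The coding transcripts Erg-201, Erg-202 and Fli1-201 were not analysed here, so both sums can miss isoforms.

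Among the tight junction genes, Cldn5, the claudin that closes the barrier to small molecules, was at 28.4, 36.4 and 27.6 TPM in obesogenic nerves, against 113.5, 63.9 and 50.5 TPM in control nerves. The diets did not overlap (-1.20, SE 0.31, adjusted p = 0.281). Tjp1 (ZO-1), which links junctions to actin and is made by many cell types, was at 79.1, 67.5 and 53.9 TPM in obesogenic nerves, against 94.3, 95.4 and 82.3 TPM in control nerves, without overlap (-0.45, SE 0.20, adjusted p = 0.469). Ocln, a membrane protein of tight junctions, was uneven: 2.17, 0 and 8.64 TPM in obesogenic nerves and 2.8, 2.33 and 0 TPM in control nerves (0.42, SE 0.88, adjusted p = 0.901). Without obesogenic library 3 its change was -0.39.

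Barrier transporters and carriers were lower in obesogenic nerves in 9 of 9 tested, 5 without overlap, with a median of -0.51. In Slco1a4, Abcb1a, Abcg2 and Pltp the control libraries lay close together. Slco1a4, an organic anion transporter of barrier vessels, was at 45.5, 34.4 and 48.9 TPM in obesogenic nerves, against 80.8, 78 and 75.4 TPM in control nerves (-0.86, SE 0.19, adjusted p = 0.236). Abcb1a, P-glycoprotein, the main drug efflux pump, was at 30.3, 25.6 and 19 TPM in obesogenic nerves, against 47, 46.5 and 43 TPM in control nerves (-0.86, SE 0.22, adjusted p = 0.272). Abcg2, the second efflux pump, was at 55.2, 44 and 47.2 TPM in obesogenic nerves, against 90.1, 80.4 and 87.8 TPM in control nerves (-0.81, SE 0.17, adjusted p = 0.225). The efflux pumps and Slco1a4 thus separated the diets, although obesogenic libraries differed among themselves by more than control libraries did in Slco1a4 and Abcb1a. Pltp, a phospholipid transfer protein, was at 23.5, 23.6 and 18 TPM in obesogenic nerves, against 32.5, 31.4 and 31.5 TPM in control nerves (-0.54, SE 0.20, adjusted p = 0.414).

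The remaining 5 transporters and carriers had changes between -0.51 (Car4, a capillary carbonic anhydrase) and -0.23 (Mfsd2a, the lipid carrier that also restrains vesicle traffic). Bsg, the chaperone of lactate carriers, and Slc3a2, the heavy chain of amino acid exchangers, are made by many cell types and had the highest levels of this role, with control means of 1007 and 335.4 TPM. Slc3a2 was the only one of these 5 without overlap, at 260.5, 273.4 and 270.6 TPM in obesogenic nerves and 301.5, 393.4 and 311.2 TPM in control nerves (-0.31, SE 0.18). Its light chain Slc7a5 overlapped, with a log2 change of -0.28 (adjusted p = 0.707).

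Promoters of genes whose values separated the diets are shown so that their sequence can be read beside the values: 250 bases before the annotated start, from RefSeq on GRCm38.p6, 5′ to 3′ on the gene's strand. Capitals mark matches, on either strand, to AGGAAG or CCGGAAG (letters at the core of ETS factor sites) and ACAATG or ACAAAG (SOX factor sites). Itm2a lies at chrX:107403361-107403610 (minus strand), Abcg2 at chr6:58640296-58640545 (plus), Slco1a4 at chr6:141856221-141856470 (minus) and Cldn5 at chr16:18776597-18776846 (plus).
Itm2a: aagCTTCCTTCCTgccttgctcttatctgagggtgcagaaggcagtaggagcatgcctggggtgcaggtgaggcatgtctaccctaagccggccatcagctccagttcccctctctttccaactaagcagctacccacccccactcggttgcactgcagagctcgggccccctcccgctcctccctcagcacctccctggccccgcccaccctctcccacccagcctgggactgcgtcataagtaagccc
Abcg2: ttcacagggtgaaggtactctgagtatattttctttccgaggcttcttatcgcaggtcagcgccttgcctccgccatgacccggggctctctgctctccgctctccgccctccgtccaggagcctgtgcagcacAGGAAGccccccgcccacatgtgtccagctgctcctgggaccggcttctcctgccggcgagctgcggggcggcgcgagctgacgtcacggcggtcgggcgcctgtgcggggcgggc
Slco1a4: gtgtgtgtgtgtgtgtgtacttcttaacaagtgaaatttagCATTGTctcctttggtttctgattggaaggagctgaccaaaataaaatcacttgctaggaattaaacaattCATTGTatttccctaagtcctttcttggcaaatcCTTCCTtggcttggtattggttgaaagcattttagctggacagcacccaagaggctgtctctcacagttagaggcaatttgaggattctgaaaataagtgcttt
Cldn5: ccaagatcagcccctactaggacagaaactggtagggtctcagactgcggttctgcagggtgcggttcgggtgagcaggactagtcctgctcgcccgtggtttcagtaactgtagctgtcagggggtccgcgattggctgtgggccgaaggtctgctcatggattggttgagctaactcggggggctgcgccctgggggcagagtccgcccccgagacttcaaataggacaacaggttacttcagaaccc
The Itm2a and Abcg2 windows hold AGGAAG matches, the Slco1a4 window AGGAAG and ACAATG matches, and the Cldn5 window none of the 4 motifs. Of the 37 genes, 20 had an entry. Of these, 13 held either ETS motif, against 34.5% of 32851 promoters, and 4 held either SOX motif, against 25.2%. In 2 of the 20, Abcb1a among them, the entry lay over 1000 bases from the start of the most abundant transcript. Both were kept in these counts, and Abcb1a is counted for ETS and for SOX. AGGAAG was in 11, CCGGAAG in 2, ACAATG in 2 and ACAAAG in 2 of the 20, against 29.5%, 6.91%, 10.7% and 16.5% of all promoters. These are counts of letters in one window, not of bound sites. Abcb1a had a smaller p than Cldn5, but its entry lay over 1000 bases from the start of its most abundant transcript, so Cldn5 was shown in its place, a choice made after this was seen.

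The capillary surface genes were split. Itm2a, an integral membrane protein abundant in capillary endothelium, had the smallest p of the 35: 226.7, 194.8 and 242.7 TPM in obesogenic nerves, against 636.4, 493.4 and 426.8 TPM in control nerves, without overlap (-1.21, SE 0.21, 95% interval -1.70 to -0.72, adjusted p = 0.162). Ly6c1, a surface antigen of capillaries and of some leukocytes, was at 5.23, 28.1 and 76.8 TPM in obesogenic nerves and 82.1, 96 and 2.23 TPM in control nerves. The diets overlap, and both the lowest and the highest value are from control libraries (-0.29, SE 1.43, adjusted p = 0.958). Ly6a (Sca-1), which endothelium and interferon-exposed leukocytes express, was at 4.34, 139.7 and 12.2 TPM in obesogenic nerves and 29.8, 17.9 and 24.2 TPM in control nerves (-0.19, SE 1.07, adjusted p = 0.962). Obesogenic library 2 alone was high, and without it the 2 other obesogenic libraries were below all control libraries.

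A near-identical copy limits the Ly6c1 values, and the coding transcripts Ly6c1-201 and Ly6a-201 were not analysed here. The leading transcripts of Ly6c1 and Ly6c2 shared 95.8% of 835 aligned bases, so reads could be split between them. Ly6c2, a monocyte and lymphocyte antigen, was at 0.965, 1155 and 1.54 TPM in obesogenic nerves and 2.93, 9.79 and 5.38 TPM in control nerves. Ly6e, an interferon-inducible relative of Ly6a whose leading transcript aligned with that of Ly6a over 26 bases only, was at 270.9, 1690 and 308.3 TPM in obesogenic nerves and 396.2, 488.1 and 218.6 TPM in control nerves. The same library 2 was the highest for Ly6a, Ly6c2 and Ly6e. Abcb1b shared 87.2% of 4029 aligned bases with Abcb1a and was low, from 1.5 to 8.16 TPM in obesogenic and from 2.56 to 2.95 TPM in control libraries.

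**Figure D3:**
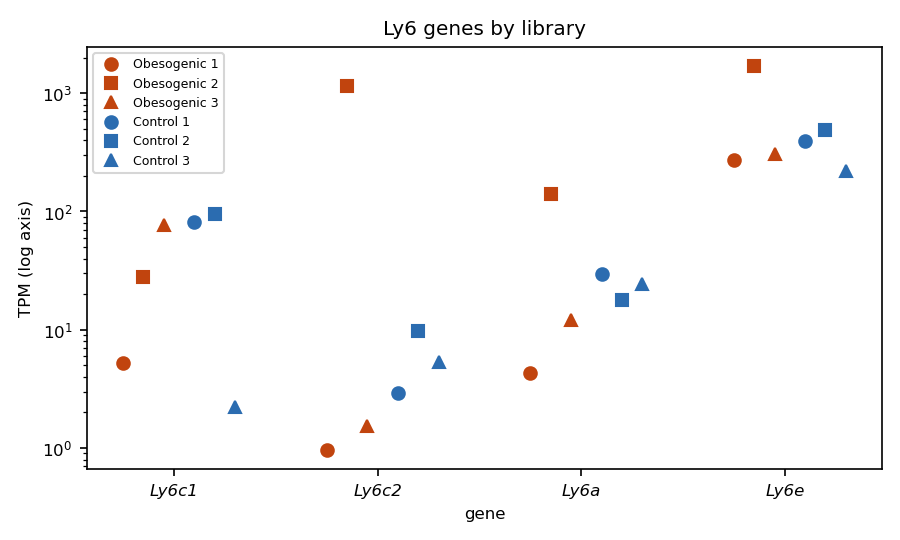
TPM of Ly6c1, Ly6c2, Ly6a and Ly6e in each library (log axis), obesogenic libraries left of control libraries. Obesogenic library 2 holds the highest value of Ly6c2 (1155 TPM), Ly6a (139.7 TPM) and Ly6e (1690 TPM), while Ly6c1 is lowest in control library 3 (2.23 TPM).

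Plvap, the diaphragm protein of fenestrated vessels, was at 9.82, 6.01 and 11.1 TPM in obesogenic nerves and 26.2, 3.46 and 4.37 TPM in control nerves. Control library 1 was the highest of the 6 and control libraries 2 and 3 the lowest (0.17, SE 0.68, 95% interval -1.44 to 1.77, adjusted p = 0.949). The interval allows a change of either sign.

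**Figure D4:**
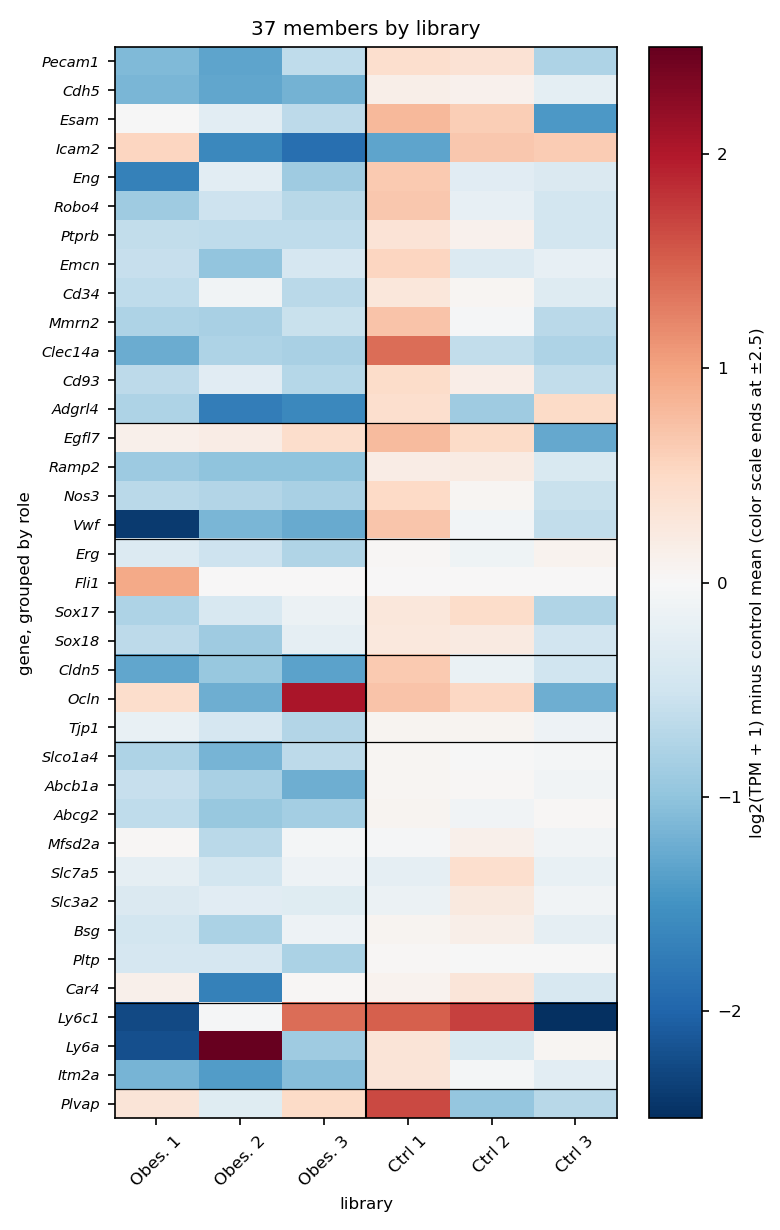
Log2(TPM + 1) of each gene in each library minus the gene's mean over the control libraries, genes ordered by role, obesogenic libraries left of control libraries. Obesogenic columns are mostly negative, control library 1 mostly positive, and control library 3 is negative for most surface genes but near 0 for Abcg2, Slco1a4 and Abcb1a.

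Genes of the list did not vary in step within the control diet. The library median over the 13 surface genes, relative to the control mean, was -0.76, -0.78 and -0.69 in obesogenic libraries 1, 2 and 3, and 0.45, 0.05 and -0.45 in control libraries 1, 2 and 3. Over the 9 transporters it was -0.42, -0.80 and -0.30 in obesogenic libraries and 0.05, 0.13 and -0.09 in control libraries. The control medians of the surface genes thus spanned a wider range than those of the transporters. Over all 35 genes without control library 3, the median change was -0.85 and 26 genes were lower without overlap, against 12.3% of all genes. That library was most often the lowest control, so a deeper change without it was foreseeable. Without control library 1 the median was -0.43 and 17 genes were lower without overlap, against 9.52% of all genes. Without control library 2 the values were -0.57 and 17, against 10.5%. Relative to a core of 9 endothelial genes (Pecam1, Cdh5, Esam, Icam2, Robo4, Emcn, Clec14a, Egfl7 and Ramp2), whose mean log2 level was 3.25, 2.99 and 3.08 in obesogenic and 4.24, 3.98 and 3.29 in control libraries, 17 of the 26 other genes tested were higher and 9 lower in obesogenic nerves, with a median difference of 0.19, against 0.81 over all genes tested. Itm2a and Vwf were the 2 of these 26 lower without overlap, against 0.585% of all genes on this scale. Of the 26, 0 were higher without overlap, and the share of all genes in that direction is not given here. Itm2a stood 4.58, 4.62 and 4.85 log2 units above that core in obesogenic nerves and 5.08, 4.97 and 5.45 in control nerves. Slc7a5, Slc3a2 and Bsg differed from the core by 0.45, 0.42 and 0.27 between diets, and Abcg2, Slco1a4, Abcb1a and Cldn5 by -0.08, -0.13, -0.13 and -0.47, all with overlap. No test was made on this scale, whose zero is set by genes of the list itself.

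Of 186 listed transcripts of the 37 genes, 94 were tested. Of these 94, 74 were lower in obesogenic nerves, against 44.7% of 35408 transcripts tested. Without overlap, 21 were lower, against 6.11%, and 2 were higher, against 7.43%. Some passed the filter through 1 diet alone, so their difference was partly built in. Abcb1a-202 (0, 0.257 and 0 TPM in obesogenic nerves, 4.96, 2.49 and 2.53 TPM in control nerves) and Adgrl4-209 reached 1 TPM in control libraries only. Egfl7-215, 1 of the 2 higher, reached 1 TPM in obesogenic libraries only. Among the 94, 44 held at least 20% of their gene, of which 40 were lower, against 45.1% of the 18133 tested transcripts with such a share. Of the 44, 18 were lower without overlap, against 7.48% of those transcripts. None of the 94 passed an adjusted p of 0.05 in limma (smallest adjusted p = 0.201), where 0.00282% of all transcripts were called lower. Both Slco1a4-203 (28.3, 20.5 and 29.9 TPM in obesogenic nerves, 51.1, 52.4 and 50 TPM in control nerves) and Slco1a4-202 (12.3, 10.9 and 15 TPM in obesogenic nerves, 24, 22.5 and 20.2 TPM in control nerves) were lower without overlap. Abcg2-202 held 81.8% of Abcg2 and gave 44.7, 33 and 39.8 TPM in obesogenic nerves, against 77, 68.7 and 67.7 TPM in control nerves. The Eng isoforms differed in pattern: Eng-202 was at 0, 13.8 and 8.07 TPM in obesogenic nerves and 29, 16 and 17.1 TPM in control nerves, while Eng-205 was at 6.03, 6.37 and 5.15 TPM in obesogenic nerves and 12.9, 5.01 and 2.29 TPM in control nerves. Esam rested mainly on Esam-203, a retained-intron transcript with 77% of its TPM. Ly6c1-202, 71.8% of Ly6c1, was listed at 0 in obesogenic library 1 and control library 3, the libraries in which Ly6c1 was lowest. For 16 of the 37 genes at least 1 coding transcript of GENCODE M21 was not analysed here, so their sums can miss isoforms. These 16 were Erg, Fli1, Pecam1, Slco1a4, Abcg2, Adgrl4, Ocln, Egfl7, Icam2, Esam, Ly6c1, Ly6a, Eng, Mfsd2a, Bsg and Pltp. They thus include Ocln and Egfl7, which were higher on the log scale, and the uneven Icam2. Of these 16, 14 were tested, 12 were lower and 3 lower without overlap, with a median of -0.50. Of the 21 others, all tested, 20 were lower and 13 lower without overlap, with a median of -0.66. Over all genes tested, 7.45% were lower without overlap. This split was made after the data were seen.

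Other vessel gene lists had negative medians as well. Over all genes tested, 42.3% were lower and 7.45% lower without overlap, the shares to set beside these counts. Of 26 other barrier genes tested, 18 were lower, 6 without overlap, 0 were called, and the median was -0.28. The other 8 were higher, all with overlap, among them Cgn (1.03), Slco1c1 (0.80) and Cldn12 (0.51). Adgra2, among the 6, passed the filter mainly through control libraries. The lower genes of smallest p were Foxf2, a transcription factor of mural cells in brain, Lsr, the angulin of tricellular junctions, and Apcdd1, an inhibitor of Wnt signalling. Foxf2 was at 10.7, 10.3 and 9.98 TPM in obesogenic nerves and 28.2, 26.6 and 22.3 TPM in control nerves (-1.23, adjusted p = 0.162). Lsr changed by -1.10 (adjusted p = 0.219) and Apcdd1 by -0.83 (adjusted p = 0.248). Of 16 VEGF and angiopoietin genes, 15 were lower, 5 without overlap, and the median was -0.81. Among them were the VEGF receptors Flt1 (18.3, 16.6 and 16.2 TPM in obesogenic nerves, 47, 28.4 and 33.5 TPM in control nerves) and Kdr (13, 8.92 and 9.59 TPM in obesogenic nerves, 27.6, 14.9 and 21.1 TPM in control nerves), and the angiopoietin receptor Tek (-0.83, adjusted p = 0.355). Arterial genes were lower in 9 of 10, with Mgp, a calcification inhibitor, at 350.3, 400.5 and 341.4 TPM in obesogenic nerves and 890.8, 829.4 and 726.5 TPM in control nerves (-1.16, adjusted p = 0.14). Fbln5, an elastic fibre protein, had a change of -0.83 and Gkn3, an arterial marker in mouse brain, of -1.23. Venous and leukocyte adhesion genes were lower in 7 of 7, 2 without overlap, and included Nr2f2, the factor of venous identity (-1.13, adjusted p = 0.351), Tmem252 (-0.98) and Lrg1 (-1.41), a secreted glycoprotein that modifies TGF-beta signalling in vessels.

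Pericyte and smooth muscle markers were lower in 13 of 14 tested, 9 without overlap, with a median of -1.10. Over all genes tested, 7.45% were lower without overlap, the share to set beside the counts in this paragraph. Their summed level was 450.3 to 468.8 TPM in obesogenic nerves, against 825.1 to 1249 TPM in control nerves, and Pdgfrb, a defining marker, was listed at 0 in all libraries. Vtn, Anpep and Rgs5 had changes of -1.16, -1.08 and -1.11. Meningeal fibroblast and arachnoid markers were lower in 12 of 12, 10 without overlap, with a median of -1.45, and summed to 616.1 to 785.0 TPM in obesogenic nerves, against 1593 to 2303 TPM in control nerves. These 2 lists had more negative medians than the vessel genes. Neuron markers were higher in 6 of 6, 5 without overlap, against 8.88% of all genes higher without overlap. They summed to 55 to 611.0 TPM in obesogenic nerves, against 23.7 to 51.6 TPM in control nerves. Syt1 (11.1, 3.55 and 30.8 TPM in obesogenic nerves, 1.39, 0.376 and 0.176 TPM in control nerves) and Gad1 are among these 5. Both passed the filter mainly through obesogenic libraries, so their difference was partly built in. Oligodendrocyte markers were lower in 7 of 7, 3 without overlap (26819 to 54966 TPM in obesogenic nerves, against 61557 to 69500 TPM in control nerves), and astrocyte markers in 4 of 6 (2219 to 4366 TPM in obesogenic nerves, 3755 to 6316 TPM in control nerves). Red cell markers, which track blood in the sample, overlapped widely (3327 to 27305 TPM in obesogenic nerves, 7641 to 35017 TPM in control nerves). Lymphatic markers were lower in 3 of 3 tested (16.4 to 28.5 TPM in obesogenic nerves, 30 to 42.4 TPM in control nerves). Microglia markers overlapped (167.8 to 653.4 TPM in obesogenic nerves, 200.4 to 300.4 TPM in control nerves). B, plasma and T cell markers were at 7.25, 75364 and 10.3 TPM in obesogenic nerves and 9.91, 110.6 and 37.3 TPM in control nerves. Interferon response markers summed to 278.8 to 2527 TPM in obesogenic nerves and 329.3 to 646.3 TPM in control nerves, highest in obesogenic library 2. None of these lists held a called gene, and their part in the result was not tested.

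**Figure D5:**
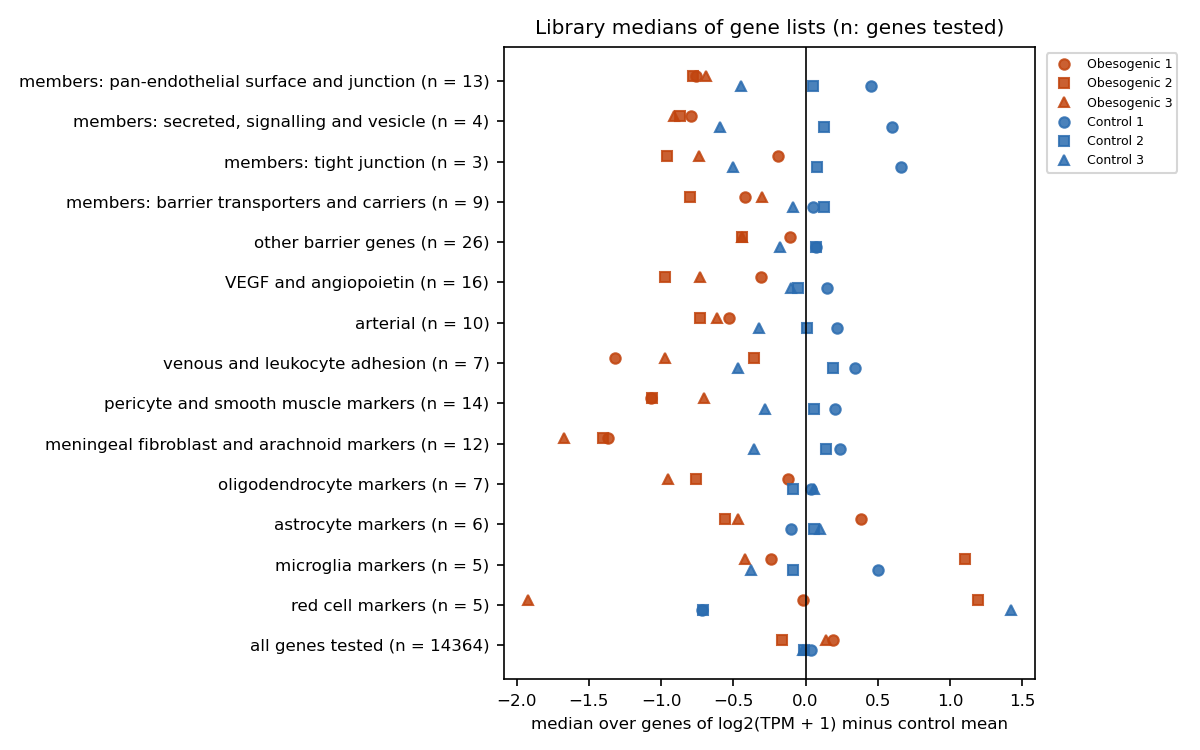
Median over the genes of selected lists of log2(TPM + 1) minus the control mean, 1 point per library and list, obesogenic libraries in orange and control libraries in blue. Neuron markers are not drawn (medians 2.85, 0.95 and 4.19 in obesogenic libraries 1, 2 and 3). Also not drawn are lymphatic, interferon response, and B, plasma and T cell markers, the transcription factors, the capillary surface genes and Plvap. Obesogenic points of the surface genes lie between -0.78 and -0.69, and control points between -0.45 and 0.45. Obesogenic points of the meningeal list lie between -1.67 and -1.37 and those of the pericyte list between -1.07 and -0.70.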

How the data were processed

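Optic nerve poly(A) RNA was isolated (NucleoSpin RNA Plus XS) and libraries were prepared (SMART-Seq mRNA), per the labels' protocols. The authors deposited TPM values per transcript. Their tools are given in the submitters' processing notes as DRAGEN, STAR 2.7.9a, Subread and featureCounts 2.0.3, with no roles. Which tool gave TPM, on which build and annotation, is not given in the sources used here. The deposited TPM summed to 788456 to 832193 per library, less than TPM is scaled to, so some transcripts were not analysed here. TPM keeps no depth, so depth is unknown and no counting interval is given.

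Repeated lines (415 transcripts, identical values) were counted once, and transcripts were summed to genes. Genes at 1 TPM or more in at least 3 of 6 libraries were tested with limma 3.58.1 (R 4.3.3) as log2(TPM + 1), with a mean-variance trend and Benjamini-Hochberg adjustment over all genes tested, threshold 0.05, two-sided. The log2 scale with this pseudocount understates changes of low genes. An exact permutation test of 3 against 3 cannot go below 0.1. The fit was tested on simulated data. The 9-gene core was scored without a test, with Erg and Fli1 left out.

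The genes and lists were chosen with earlier results of these data known. In each role up to 4 genes of smallest unadjusted p are given in full, and in comparison lists up to 3. Promoters come from RefSeq (GRCm38.p6), and transcript completeness was checked against GENCODE M21. Copies were aligned by transcript with Biopython 1.88, since no protein table was used here. Alternatives covered pseudocount, filter, scaling, replicate block, array weights, transcript choice and each library left out. Restricting the list to genes with complete coding transcripts was added after seeing the data.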

Additional observations from a re-analysis of the deposited data

How the results depend on the processing

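With other pseudocounts, filters, scalings and fits, none of the 35 genes passed, and 32 of 35 (with no filter 33 of 37, with a 5 TPM filter 27 of 29, with the most abundant transcript 32 of 33) stayed lower, except as follows. Array weights called 2064 genes (1505 higher in obesogenic nerves) and 11 of the 35, and turned Icam2 to 0.26 and Car4 to 0.03. Pseudocount 5, no filter and protein-coding genes only called 0 genes, and the most abundant transcript put Egfl7 at -0.79. Rescaling without immunoglobulin genes or to protein-coding genes left 10 of the 16 non-overlapping genes, among them Cdh5, Itm2a, Slco1a4, Abcg2 and Cldn5, and put the median change of all genes at 0.17 and 0.18, against 0.08 as deposited; quantile normalization moved it to -0.03. Obesogenic library 2 alone, against the 3 controls, leaves 1 library in that arm, assumed to vary like the controls, and does not measure the diet: 193 genes and 2 of the 35 passed (Slco1a4, and Ly6a at 2.52), 25 were lower without overlap, against 44.2% of all genes, and Ocln was at -1.22 and Plvap at -0.31.

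Leaving out 1 library gave 0 to 914 genes called, 0 to 4 of the 35 called, and medians from -0.85 to -0.43. From 17 to 26 of the 35 were lower without overlap, against 9.52% to 15.7% of all genes (7.45% with all libraries). Without control library 1, 1 of the 35 was higher without overlap, against 13.9% of all genes. Some genes turned direction with 1 library left out: Ly6c1 (-1.89 to 0.68), Ly6a (-1.54 to 0.82), Car4 (-0.83 to 0.09), Ocln (-0.39 to 1.25), Esam (-1.02 to 0.09), Plvap (-0.31 to 0.99) and Egfl7 (-0.39 to 0.65). The cause was not tested.

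The replicate block gave 1 gene called (higher), 0 of the 35, 16 non-overlapping and a median of -0.63. Deviations of same-numbered libraries correlated at 0.01, 0.18 and 0.13, so the numbers were not taken as pairs. Without counts, no depth limit can be given.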
